A study of Mus musculus with 2 samples.

Results

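The mitochondrial chromosome encodes 7 subunits of respiratory complex I, the NADH dehydrogenase at the entry of the respiratory chain: mt-Nd1, mt-Nd2, mt-Nd3, mt-Nd4, mt-Nd4l, mt-Nd5 and mt-Nd6. All 7 were found by name among the 20282 genes of a single-cell matrix of mouse thymus, where 34 genes carry names starting with mt-. Their levels are described in each deposited cell cluster and in each of 2 libraries, as unique molecular identifiers (UMIs) per 1000000 UMIs of the same cells (CPM) and as a share of all mt- UMIs.

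The WT library holds thymus cells of 5 Cdc42f/f mice, and the KO library those of 5 Cdc42f/f CD4Cre littermates, all of 6 weeks. Both genotypes carry the floxed Cdc42 alleles, and Cre from the CD4 promoter is active in the T lineage from about the CD4+CD8+ (DP) stage, so B cells, myeloid cells and the earliest thymocytes are not its targets. The animals of a genotype were pooled into 1 library, so no difference between WT and KO has a replicate check, and library and genotype cannot be told apart. Intervals are exact 95% intervals (Poisson for levels, conditional binomial for ratios, Clopper-Pearson for shares), and they cover counting error only.

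The WT-labelled library held 6115 cells and 29706197 UMIs, and the KO-labelled library 7568 cells and 37920214 UMIs, with medians of 3192 and 3401 UMIs per cell. 17 cell barcodes occurred in both. Cdc42, counted at the 3′ end and not at the deleted part, had 398 CPM in the WT-labelled and 356 CPM in the KO-labelled library over all cells, and 447 and 581 CPM in cluster 7, so its counts do not check the labels. Clusters are named by their deposited number and leading marker. Clusters 0 to 4 carried 2126 to 3310 CPM of Rag1, a recombinase gene of DP thymocytes. Cd5, which is induced by T cell receptor signals, was highest in clusters 9 and 5, Itm2a, a gene of thymocytes after positive selection, in cluster 6, and Ms4a4b, a gene of mature T cells, in cluster 7. The cell cycle gene Top2a was highest in cluster 10, Il2ra of early thymocytes in cluster 14, the B cell gene Cd79a in cluster 15 and the macrophage gene Apoe in cluster 16.

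Complex I couples electron transfer from NADH to ubiquinone with proton pumping across the inner mitochondrial membrane. The mitochondrial genome supplies the hydrophobic core of its membrane arm, and nuclear genes supply the core of the peripheral arm and all accessory subunits. Mitochondrial mRNAs are cut from long transcripts of each strand, mostly at the tRNAs that separate them, and all members but mt-Nd6 are encoded on the same strand.

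The annotation of GRCm38 (GENCODE vM21) places mt-Nd1 on chromosome M at 2751 to 3707, mt-Nd2 at 3914 to 4951, mt-Nd3 at 9459 to 9806, mt-Nd4l at 9877 to 10173, mt-Nd4 at 10167 to 11544 and mt-Nd5 at 11742 to 13565 on the plus strand, and mt-Nd6 at 13552 to 14070 on the minus strand. Each is annotated as 1 exon without introns. The libraries count transcripts next to the poly(A) tail, so the last 60 annotated bases are shown for the member whose level differed most between the libraries, mt-Nd3, and for mt-Nd1 and mt-Nd4, whose proportion is described by cluster. Capitals mark the stop codon, of which the annotated mt-Nd4 transcript holds only the first base.
mt-Nd3: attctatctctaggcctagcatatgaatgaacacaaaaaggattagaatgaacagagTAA
mt-Nd1: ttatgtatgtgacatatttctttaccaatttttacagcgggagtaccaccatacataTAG
mt-Nd4: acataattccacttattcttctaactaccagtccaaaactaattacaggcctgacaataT
Neither AAAAAA nor, for the other strand, TTTTTT occurs in the last 60 bases of any of the 7 members (0 of 7). Of 58768 nuclear protein-coding transcripts, 13.2% hold 1 of them there, and 7 genes are too few to differ from that share. Further inside, runs of 6 or more A occur in mt-Nd1 (1), mt-Nd2 (3), mt-Nd4 (2) and mt-Nd5 (2), and runs of 6 or more T in mt-Nd6 (3).

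The annotated ends of mt-Nd1 and mt-Nd2 overlap the tRNA gene that follows. Members overlap each other in 2 places, which bear on how far mt-Nd4l and mt-Nd6 can be counted apart from their neighbours. Capitals mark the shared bases, 7 between mt-Nd4l and mt-Nd4 on the same strand (chrM:10144-10173 and chrM:10167-10196) and 14 between mt-Nd5 and mt-Nd6 on opposite strands (chrM:13536-13565 and chrM:13552-13581).
mt-Nd4l, last 30 bases: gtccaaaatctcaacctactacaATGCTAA
mt-Nd4, first 30 bases: ATGCTAAaaattattcttccctcactaatg
mt-Nd5, last 30 bases: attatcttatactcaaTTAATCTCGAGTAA
mt-Nd6, last 30 bases: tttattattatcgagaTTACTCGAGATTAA
In cells mt-Nd4l and mt-Nd4 share 1 bicistronic mRNA, whose 3′ end lies in mt-Nd4. The sources used here do not state whether counting used strand. mt-Nd6 and mt-Nd4l also had the fewest UMIs of the members, so their values are the least certain. How reads were treated that also match the copies of mitochondrial sequence in the nuclear genome is not stated either. Such reads could bear on any member, mt-Nd3 included, and their part was not tested.

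Together, the 7 genes had 6080 CPM in the WT-labelled library (interval 6052 to 6108) and 6959 CPM in the KO-labelled library (6932 to 6986). The log2 ratio of KO over WT was 0.19 (0.19 to 0.20), beside a median of 0.08 over all genes with at least 20 UMIs. They made up 13.8% (WT) and 14.9% (KO) of all mt- UMIs, most of the remainder being the 2 ribosomal RNAs with 72.6% and 71.5%. Among the UMIs of the 13 mt- protein genes their share was 50.3% and 52.4%.

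**Figure D1:**
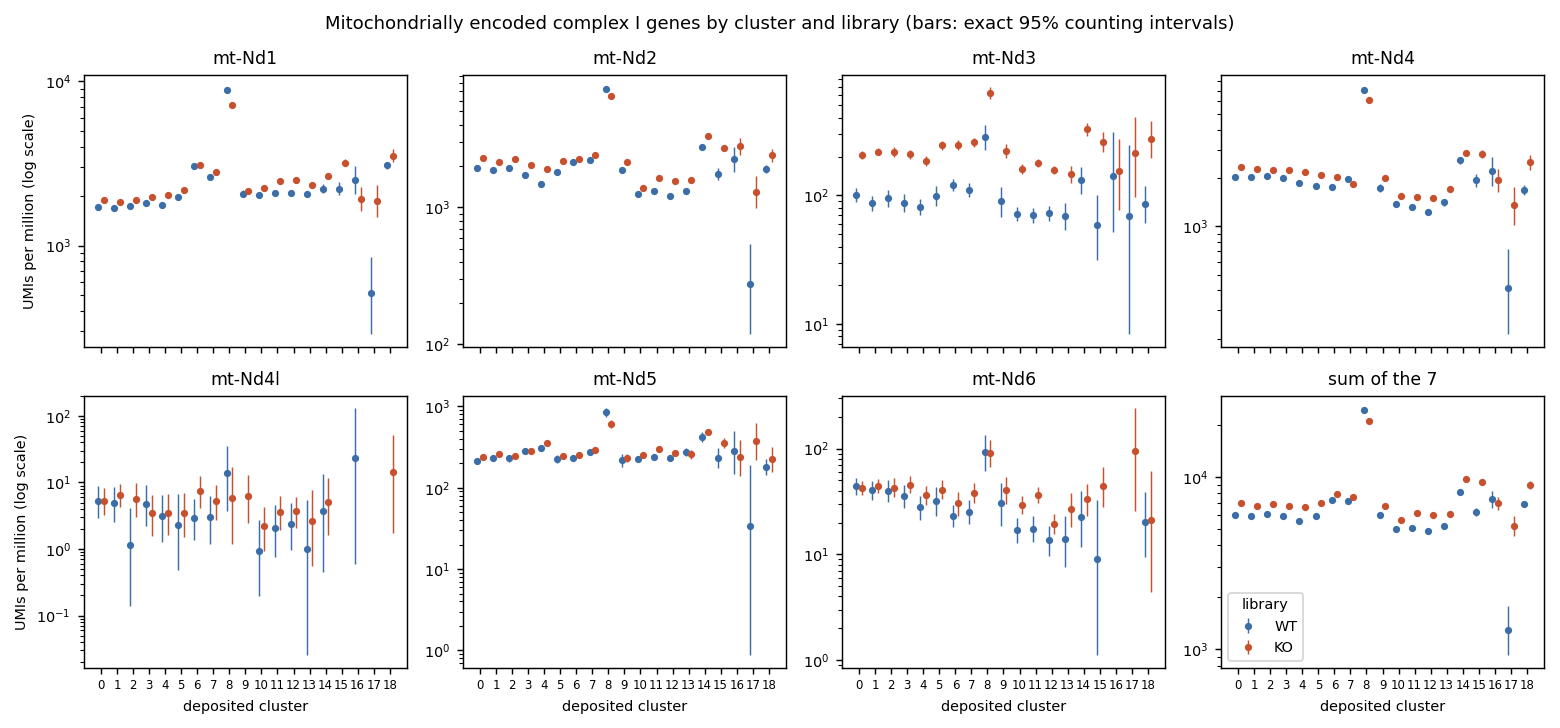
CPM (log axis) of each of the 7 genes and of their sum in the 19 deposited clusters, with WT in blue and KO in orange; bars are exact 95% Poisson intervals and clusters with 0 UMIs have no point. Cluster 8 stands above the other clusters in the sum (24421 CPM in WT, 21047 in KO), and the KO points of mt-Nd3 lie above the WT points in 17 of 17 clusters with at least 20 UMIs.

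Per kilobase of annotated transcript the members differed widely in level. In the WT-labelled library mt-Nd1 had 2272 CPM per kb, mt-Nd2 1689 and mt-Nd4 1291. mt-Nd3 followed with 262 CPM per kb, mt-Nd5 with 138, mt-Nd6 with 52.4 and mt-Nd4l with 9.86. The order in the KO-labelled library was the same, with 2437 CPM per kb for mt-Nd1, 603 for mt-Nd3 and 71.3 for mt-Nd6. Since these libraries count transcript ends, a longer transcript need not give more UMIs, and division by length changed the order. In CPM, mt-Nd5 (252 in WT, 281 in KO) lay above mt-Nd3 (91.3 and 210). In WT, mt-Nd4 (1779 CPM) also lay above mt-Nd2 (1753 CPM). The 3 genes mt-Nd1, mt-Nd2 and mt-Nd4 gave most of the members' UMIs, with 35.8%, 28.8% and 29.3% in the WT-labelled library.

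The summed level was uneven across clusters. In the WT-labelled library it was highest in cluster 8 with 24421 CPM, followed by 8119 CPM in cluster 14 and 7402 CPM in cluster 16. Next came 7317 CPM in cluster 6 and 7218 CPM in cluster 7, while the Rag1-rich clusters 0 to 4 lay between 5540 and 6087 CPM. The lowest levels were 4847 CPM in cluster 12 and 1304 CPM in cluster 17. In the KO-labelled library the ends of the order were again cluster 8 with 21047 CPM, cluster 14 with 9723 CPM and cluster 17 with 5217 CPM. Of the 18 pairs of neighbours in these orders, 13 in WT and 12 in KO had overlapping intervals.

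Cluster 8 exceeded the median of the other clusters by 2.03 on the log2 scale in WT and 1.62 in KO. Its cells were poor in RNA, with medians of 955.5 and 1199.5 UMIs, and 23.0% and 17.6% of their UMIs were mt-. The members' share of mt- UMIs there, 10.6% and 11.9%, was no higher than in most clusters. When cells with over 10% mt- UMIs were left out, which removed 203 of its 250 WT cells and 280 of its 366 KO cells, the difference was 0.38 and 0.30. This filter selects on mt- UMIs, of which the members are a share.

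Cluster 17 lay at the other end. 17 of its 26 WT cells and 13 of its 26 KO cells had no UMI of any member, and 10 and 5 of them had no mt- UMI at all. Its members' total rested on 38 and 220 UMIs, of which 1 cell gave 17 in WT and 1 cell 50 in KO. Without these cells the levels were 766 and 4296 CPM. In cluster 15, 31.7% of WT cells (20.6% to 44.7%) and 10.3% of KO cells (4.84% to 18.7%) had no member UMI, and median depth there was 1202 and 4284 UMIs per cell.

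**Figure D2:**
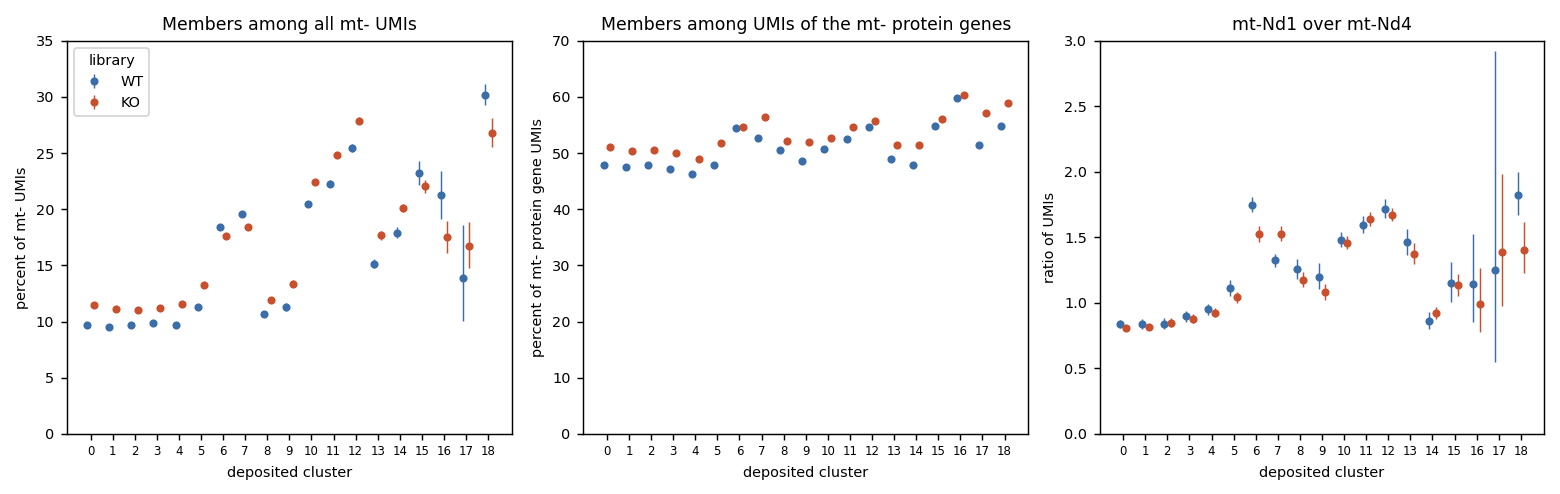
Left, the summed members as a percent of all mt- UMIs by cluster with Clopper-Pearson intervals. Middle, the summed members as a percent of the UMIs of the 13 mt- protein genes, without intervals. Right, UMIs of mt-Nd1 divided by those of mt-Nd4 with 95% binomial intervals. The left share runs from 9.53% in cluster 1 to 30.2% in cluster 18 in WT (blue), the middle share from 46.3% to 59.8%, and the right ratio from 0.84 in cluster 0 to 1.83 in cluster 18.

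Over all 19 clusters the highest summed WT level was 18.7 times the lowest, and the highest share of mt- UMIs 3.17 times the lowest. With clusters 8 and 17 set aside, the WT level ran from 4847 to 8119 CPM and the share from 9.53% to 30.2%. In the WT-labelled library the Rag1-rich clusters 0 to 4 lay between 9.53% and 9.91%, and the Cd5-rich clusters 5 and 9 at 11.3%. Clusters 6 and 7 had 18.5% and 19.5%, and the clusters 10 and 12, with much Top2a, had 20.5% and 25.5%, whereas cluster 13, with 1059 CPM of Top2a and 1438 CPM of Rag1, had 15.2%. The ribosomal RNA share of mt- UMIs ran the other way, with 79.7% in cluster 0, 66.1% in cluster 6, 62.9% in cluster 7 and 53.3% in cluster 12. Both shares are parts of the same total, most of it ribosomal RNA in nearly all clusters, so they are not independent. Against the mt- protein genes alone, the WT share of the members was 47.8% in cluster 0, 54.4% in cluster 6 and 54.6% in cluster 12.

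mt-Nd1 lies where the membrane arm meets the peripheral arm and forms part of the ubiquinone site. Over all cells its level was 2174 CPM in WT and 2332 CPM in KO (log2 ratio 0.10, 0.09 to 0.12). In WT its lowest levels outside cluster 17 were 1694 CPM in cluster 1 and 1706 CPM in cluster 0, against 3064 CPM in cluster 6 and 2606 CPM in cluster 7. KO values were 1850, 1891, 3100 and 2804 CPM in the same clusters. In both libraries mt-Nd1 was thus higher in clusters 6 and 7 than in clusters 0 and 1.

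mt-Nd2, mt-Nd4 and mt-Nd5 are the antiporter-like subunits through which the membrane arm moves protons. mt-Nd2 had 1753 CPM in WT and 2056 CPM in KO (log2 ratio 0.23, 0.21 to 0.25), and mt-Nd4 had 1779 and 2039 CPM (0.20, 0.18 to 0.21). mt-Nd5, the longest member, had 252 and 281 CPM (0.16, 0.11 to 0.20). The WT levels of mt-Nd4 in clusters 0, 6 and 12 were 2039, 1753 and 1222 CPM. From cluster 0 to cluster 6 mt-Nd4 was lower and mt-Nd1 higher. mt-Nd5 had WT levels of 213, 230 and 231 CPM in the same 3 clusters, and its highest WT level outside cluster 8 was 421 CPM in cluster 14.

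The proportion of mt-Nd1 to mt-Nd4 differed by cluster. In the WT-labelled library there were 0.84 mt-Nd1 UMIs per mt-Nd4 UMI in cluster 0 (0.80 to 0.87), 1.11 in cluster 5 (1.05 to 1.17), 1.75 in cluster 6 (1.69 to 1.81) and 1.32 in cluster 7 (1.27 to 1.38). The KO-labelled library had 0.81 (0.78 to 0.83), 1.04 (1.00 to 1.09), 1.52 (1.46 to 1.59) and 1.53 (1.47 to 1.59). Cluster 12 had 1.72 and 1.67. In both libraries clusters 0, 1 and 2 were at the low end, and the ratio was above 1 in 13 of 19 clusters in WT and 12 of 19 in KO. Clusters 6 and 7 differed from each other in WT and had overlapping intervals in KO. Since both genes are counted in the same cells, this proportion does not depend on the total that CPM is scaled to. The part of read length, priming site or transcript end in it was not tested.

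mt-Nd3, mt-Nd4l and mt-Nd6 are small subunits at the base of the membrane arm, near the ubiquinone site. mt-Nd3, which carries a flexible loop next to that site, had 91.3 CPM in the WT-labelled library (87.9 to 94.8) and 210 CPM in the KO-labelled library (205 to 215). The KO level was 2.30 times the WT level (2.20 to 2.40), a log2 ratio of 1.20. It made up 0.207% of mt- UMIs in WT and 0.449% in KO. Of all 15594 genes with at least 20 UMIs, 2.08% were at least 2-fold higher in KO, and mt-Nd3 ranked 12 of 6996 genes with at least 1000 UMIs from the highest ratio down. mt-Nd6, at rank 78, was next among the 6 members with that many UMIs.

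The mt-Nd3 difference was present across the clusters. It was at least 2-fold in 17 of 17 clusters with at least 20 UMIs, with a log2 ratio from 1.05 in cluster 6 to 2.09 in cluster 15 and a median of 1.22, and every one of these intervals lay above 0. In cluster 0 the WT level was 100.3 CPM and the KO level 207 CPM, and in cluster 7 they were 110.4 and 258 CPM. A ratio of this size was rare in each cluster. The share of all genes at least 2-fold higher in KO was 1.74%, 1.73%, 1.74%, 1.94%, 1.71% and 2.07% in clusters 0 to 5, 2.52% in cluster 6, 6.10% in cluster 7 and 5.71% in cluster 8. It was 2.76%, 2.07%, 1.91%, 1.73%, 2.33% and 3.14% in clusters 9 to 14, 9.95% in cluster 15 and 8.76% in cluster 18. Clusters 16 (6 and 11 UMIs) and 17 (2 and 9 UMIs) were too thinly counted to show a difference of this size.

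The ratio also stood in the clusters led by genes of early thymocytes and of B cells. In cluster 14, with its Il2ra, Ptcra and gamma-delta receptor genes, mt-Nd3 had 132 CPM in WT and 325 CPM in KO, a log2 ratio of 1.29 (0.92 to 1.69). In cluster 15, which led in Cd79a and Cd74, it had 59.1 and 259 CPM, a log2 ratio of 2.09 (1.31 to 3.08). The WT value there rests on few UMIs, of which 1 cell gave 23.1%, and median depth was 1202 UMIs in WT against 4284 in KO. The sum of all members also differed in cluster 15 (6210 and 9382 CPM). Relative to all mt- UMIs, the log2 ratio of mt-Nd3 lay between 0.86 and 1.52 in the 17 clusters. After each cell was thinned to 1000 UMIs, which left out 236 WT and 220 KO cells, 9.44% of WT cells (8.70% to 10.2%) and 19.7% of KO cells (18.8% to 20.7%) had an mt-Nd3 UMI, against 30.9% and 55.0% without thinning. No cluster was identified as a cell type without mitochondria, so the share that free RNA alone would give was not measured.

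**Figure D3:**
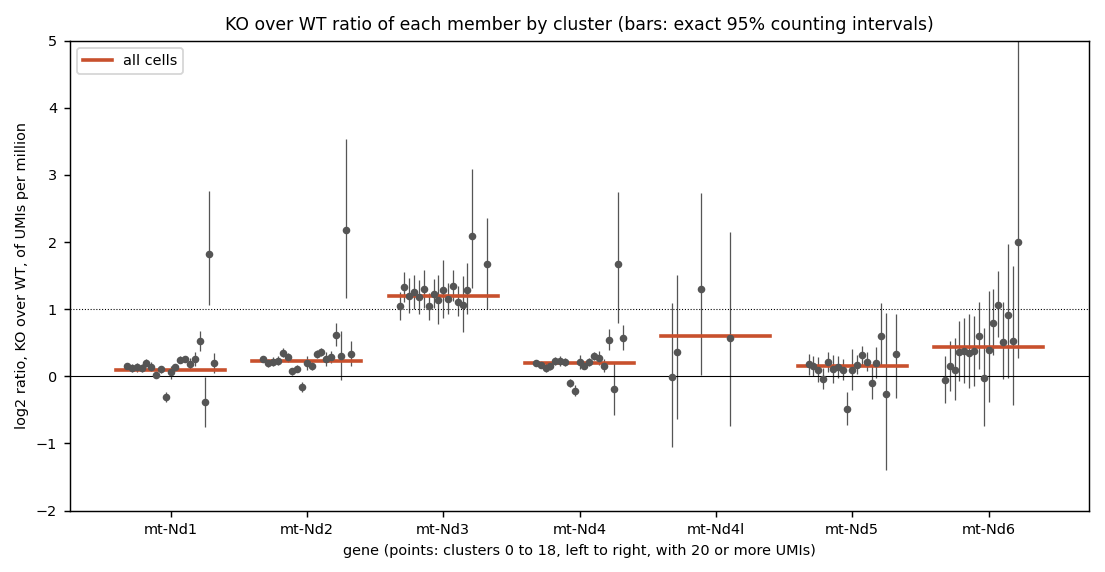
Log2 ratio of KO over WT CPM for each member; grey points are clusters 0 to 18 from left to right with at least 20 UMIs, with exact 95% intervals, orange lines are all cells, and the dotted line marks a 2-fold ratio. The mt-Nd3 points lie between 1.05 and 2.09, while most points of mt-Nd1, mt-Nd2, mt-Nd4 and mt-Nd5 lie near the all-cell values of 0.10 to 0.23; in clusters 6 and 7 those of mt-Nd1, mt-Nd2 and mt-Nd5 turn below 0 under at least 2 of 3 other scalings.

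mt-Nd6, the light-strand member, had 27.2 CPM in WT and 37.0 CPM in KO over all cells, a log2 ratio of 0.44 (0.32 to 0.57). Its ratio was uneven, at -0.05 (-0.40 to 0.31) in cluster 0, 0.79 (0.32 to 1.30) in cluster 10 and 1.06 (0.59 to 1.57) in cluster 11. Its intervals lay above 0 in 4 of 16 clusters with at least 20 UMIs and held 0 in the remaining 12. mt-Nd4l had only 87 and 169 UMIs in all, or 2.93 and 4.46 CPM (log2 ratio 0.60, 0.22 to 1.00). It had 0 UMIs in 4 WT and 3 KO clusters, where 3 counts would correspond to 4.82 to 103 CPM and 6.08 to 71.1 CPM, so few differences between clusters could be resolved. Its WT level was 5.32 CPM in cluster 0 (2.91 to 8.92) and 0.94 CPM in cluster 10 (0.19 to 2.75), which do not overlap, while no pair of neighbours in its order across clusters differed beyond the intervals.

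By a limit of 0.32 on the log2 scale, 3 of 7 members were higher in KO over all cells (mt-Nd3, mt-Nd4l and mt-Nd6) and 0 lower, where 15.5% of all genes were higher and 7.83% lower. In cluster 0, 1 of 7 was higher and 0 lower, beside 15.4% and 9.73% of genes. In cluster 6 it was 3 of 7 higher and 0 lower, beside 30.0% and 11.4%. In cluster 7, 2 of 6 with enough UMIs were higher and 0 lower, beside 42.6% and 11.5%. In these clusters the count of members is read against a background in which much of the transcriptome had a ratio above 0. In cluster 8, 1 of 6 was higher beside 29.8% and 1 of 6, mt-Nd5, lower beside 19.0%.

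Summed over the members, the KO level was higher in 17 of 19 clusters by CPM, clusters 6 and 7 among them by this scaling only, with all 17 intervals above 0. The log2 ratio was 0.22 (0.19 to 0.25) in cluster 0, 0.11 (0.08 to 0.14) in cluster 6 and 0.08 (0.05 to 0.11) in cluster 7. In clusters 6 and 7 the medians of all genes were 0.16 and 0.24, and the sign of the sum turned under each of 3 other scalings, to between -0.039 and -0.0011 in cluster 6 and between -0.16 and -0.090 in cluster 7. Cluster 8 had the lowest ratio, -0.21 (-0.26 to -0.17). It was -0.15 without 1 KO cell of 25647 UMIs that carried 5650 UMIs of granulocyte markers, 0.054 as a mean over cells, and 0.12 without cells over 10% mt- UMIs, so its direction depends on the summary. Cluster 16 had 7402 CPM in WT and 7028 CPM in KO, with an interval of the ratio that held 0.

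As a share of mt- UMIs the sum was higher in KO in 14 of 19 clusters, with 13 intervals above 0 and 4 below. In cluster 0 it was 9.67% in WT and 11.5% in KO. In clusters 6 and 7 it was lower in KO, 17.6% against 18.5% and 18.4% against 19.5%. Within the mt- protein genes alone the KO share was higher in 19 of 19 clusters, at 54.7% against 54.4% in cluster 6 and 56.4% against 52.7% in cluster 7. Intervals were not computed for this share, so small differences such as that in cluster 6 are not told apart from counting error.

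**Figure D4:**
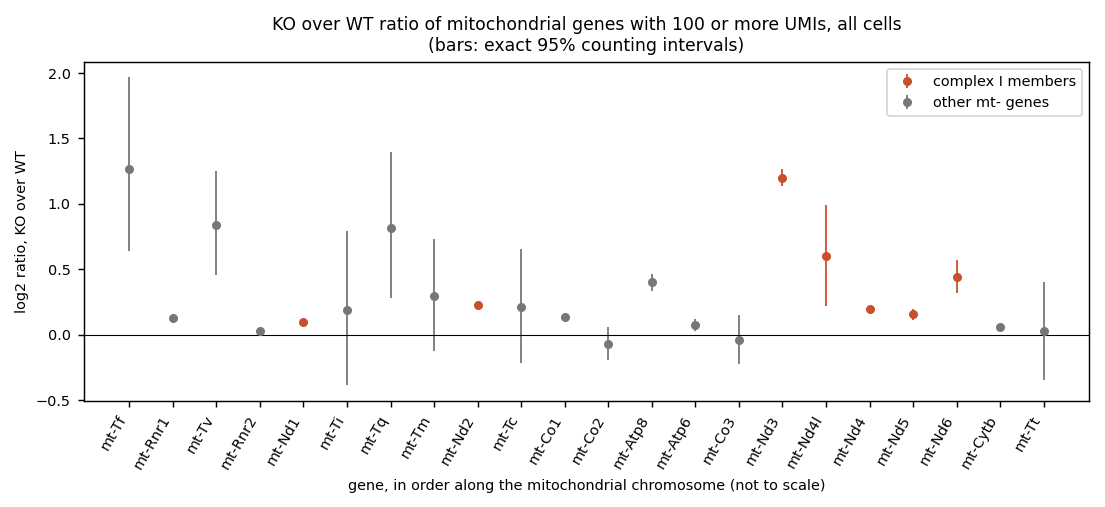
Log2 ratio of KO over WT CPM over all cells for the mt- genes with at least 100 UMIs, in their order along the mitochondrial chromosome and not to scale, with members in orange, other genes in grey and exact 95% intervals as bars. mt-Nd3 at 1.20 lies between mt-Co3 at -0.04 and mt-Nd4l at 0.60; the sign of genes near 0 depends on the scaling, which moves every point by up to 0.08.

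The protein genes on either side of mt-Nd3 did not share its ratio. mt-Co3, upstream of it across 1 tRNA, had 14.6 CPM in WT and 14.2 CPM in KO (-0.04, -0.22 to 0.15). mt-Nd4, downstream, had the ratio of 0.20 given above. The interval of mt-Nd4l, the next protein gene downstream, also across 1 tRNA, ended at 1.00 and that of mt-Nd3 began at 1.14. Both nearest neighbours were thinly counted, mt-Co3 with 433 and 539 UMIs and mt-Nd4l with 87 and 169, beside 2712 and 7963 for mt-Nd3. Of the 6 mt- protein genes outside complex I, only mt-Atp8 passed the limit of 0.32, with 107 and 141 CPM (0.40), and mt-Cytb, the most abundant, had 5013 and 5218 CPM (0.06). The 2 ribosomal RNAs had 0.13 (mt-Rnr1) and 0.03 (mt-Rnr2). Among the tRNAs, mt-Tf had 27 and 84 UMIs (1.27, 0.64 to 1.97), mt-Tv had 78 and 179 (0.84) and mt-Tq had 41 and 93 (0.82). The other tRNAs with at least 100 UMIs had intervals that held 0, with ratios of 0.30 for mt-Tm, 0.22 for mt-Tc, 0.19 for mt-Ti and 0.03 for mt-Tt.

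The nuclear genes of the complex had ratios near 0. Of the 7 nuclear core subunits, 0 passed this limit in either direction over all cells, with a median log2 ratio of -0.05 and a range from -0.09 (Ndufs3) to 0.06 (Ndufv1). Of 30 accessory subunits, 1 was higher, Ndufb1-ps at 0.40, and 0 lower, with a median of -0.004. All 37 nuclear subunits together had 8493 CPM in WT and 8555 CPM in KO, so there were 0.72 member UMIs per nuclear subunit UMI in WT and 0.81 in KO. This ratio was 0.80 and 0.91 in cluster 0, 1.07 and 1.19 in cluster 7, 0.48 and 0.61 in cluster 12 and 8.75 and 7.23 in cluster 8.

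The factors that build the complex and its RNAs were near the median of all genes as well. Of 16 assembly factors, 0 passed the limit, with log2 ratios from -0.30 (Nubpl, an iron-sulphur cluster factor) to 0.23 (Timmdc1) and a median of 0.11. Of 28 genes of mitochondrial transcription and RNA processing, 1 was higher, the transcription elongation factor Tefm at 0.46, and 0 lower, down to -0.08 (Fastkd3), with a median of 0.04.

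Across the 19 clusters, the genes whose log2 level was most like the summed members were mt- genes, and all of the first 5 but mt-Cytb were members of the sum. The lower of the 2 libraries' Pearson correlations was 0.95 for mt-Nd2 and mt-Nd4, 0.93 for mt-Cytb, 0.88 for mt-Nd1 and 0.76 for mt-Nd3, which ranked 1 to 5 of 10341 genes. mt-Nd5 ranked 17 with 0.65 and mt-Nd6 ranked 3625 with 0.18. The 5 genes outside the mitochondrial genome with the highest values were Usp9x and Arfgef1 (0.74 each), Adpgk (0.71), Zbtb7a (0.70) and Smg5 (0.70). The sums contain the members themselves, and the clusters of a library share its depth and preparation, with cluster 8 far above the others, so these values are a description.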

How the data were processed

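Single-cell 3′ libraries of thymus, 1 per genotype, were counted by the authors with Cell Ranger 3.0.2 (which includes STAR) on mm10 and handled in Seurat, per the submitters' processing notes. The deposited values are raw UMI counts per gene and cell. The deposited clusters at resolution 1.5 (19 clusters) were used, while a deposited mitochondrial percent of 0 for each cell was not. All 13683 deposited cells entered, no doublet caller was run, and conditions follow the WT or KO in cell names, which carry Cdc45 for Cdc42. Whether the authors counted on GENCODE vM21, used here for positions and sequences, is not given in the sources used here.

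UMIs were summed per cluster and library in Python 3.11.15, and 0.5 was added to both sums for log2 ratios. No test was run between libraries. Scaling alternatives used TMM (edgeR 4.0.16) and DESeq2 1.42.0 size factors. Ratio intervals were tried on simulated Poisson counts without differences between cells or libraries, so this trial bears on counting error only. Named genes are the members, mt- genes with 100 or more UMIs, the extremes of each list among genes with 20 or more UMIs, and the 5 genes most like the sum. Members and lists were chosen with earlier results of these data known.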

Additional observations from a re-analysis of the deposited data

Results flagged for a closer look

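The summed members were lower in the KO-labelled library in 2 of 19 clusters while they were higher in 17 by CPM, clusters 6 and 7 by this scaling only. In cluster 8 the log2 ratio of KO over WT was -0.21, and in cluster 16, which led in Apoe and rested on 313 and 501 member UMIs, it was -0.076. The difference between these clusters and the others was not tested, since each condition is 1 library. The cell with most member UMIs gave 75 of them in WT and 114 in KO in cluster 16, and without both cells the ratio there was 0.08 (-0.16 to 0.32).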

How the results depend on the processing

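The log2 ratio of mt-Nd3 was above 0 under all 11 alternatives (1.12 to 1.30): 1.13 with TMM, 1.12 with DESeq2 size factors, 1.30 as a mean over cells and 1.28 with clusters weighted equally, the last chosen after the data were seen. The deposited clusters at resolutions 1.8 and 2, also chosen later, gave higher KO levels in 20 of 20 and 21 of 21 clusters. For the sum (0.19) the alternatives gave 0.16 with totals free of ribosomal protein and mt- genes, 0.12 with TMM, 0.12 with DESeq2, 0.22 as a mean over cells, 0.22 thinned and 0.29 with equal clusters. Its share of mt- UMIs (1.13 points higher in KO) became 2.11 among protein genes, 1.22 as a mean over cells, 1.45 thinned and 0.98 without the 5% of cells with most UMIs. The excess of cluster 8 became 2.16 (totals without ribosomal protein and mt- genes), 1.94 (mean over cells), 1.803 (thinned) and 0.38 (cells over 10% mt- UMIs left out) in WT, and 1.78 (mean over cells), 1.53 (thinned), 0.30 (cells over 10% left out), 1.46 (cells under 1000 UMIs left out) and 1.69 (without the granulocyte-like cell, chosen later) in KO. Signs turned with totals free of ribosomal protein and mt- genes, TMM and DESeq2, in that order, for the sum in cluster 6 (-0.0011, -0.039, -0.039) and cluster 7 (-0.090, -0.16, -0.16), for mt-Nd1 in cluster 7 (-0.068, -0.14, -0.13) and for mt-Nd2 in cluster 6 (-0.039, -0.077, -0.077) and cluster 7 (-0.060, -0.13, -0.13). From intervals that held 0, signs also turned for mt-Nd1 in cluster 6 (-0.097, -0.13, -0.13) and mt-Nd5 in cluster 7 (-0.075, -0.15, -0.14). For mt-Nd5 in cluster 6 this held with TMM and DESeq2 only (-0.013 each). In cluster 8 a mean over cells gave 0.054 for the sum, 0.15 for mt-Nd2 and 0.039 for mt-Nd4, and leaving out cells over 10% mt- UMIs gave 0.12 for the sum, 0.30 for mt-Nd1 and 0.19 for mt-Nd2. The members' share among protein genes turned to 0.24 points higher in KO in cluster 6 and 3.70 in cluster 7. The cause was not tested. Of 749 values recomputed, 591 stayed within the counting interval of the value reported. Another 135 left it with the same sign or from an interval that held 0, and 23 turned sign from an interval without 0. Sign changes from intervals that held 0 are not among the 23, and some lie among the 591. No paired analysis was possible because each condition is 1 library. Depth limits mt-Nd4l and mt-Nd6 and clusters 16 and 17.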
